A study of Mus musculus with 20 samples.

Results

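The genes described here are 10 cyclins and cyclin-dependent kinases (CDK) of the cell cycle: *Ccnd1*, *Ccnd2*, *Ccnd3*, *Ccne1*, *Ccne2*, *Cdk2*, *Ccna2*, *Cdk1*, *Ccnb1* and *Ccnb2*. They were chosen by symbol, and all 10 listed symbols were found among the 16810 genes of the expression table. RNA-Seq was carried out on eGFP-high microglia sorted from the spinal cord of adult CX3CR1+/eGFP mice, 12 weeks of age and male per the study's methods. In these mice eGFP replaces 1 copy of the fractalkine receptor gene in every group, controls included, and the reporter also marks peripheral monocytes. The cells came from a short stretch of thoracic cord around the lesion. The table holds 20 samples: non-injured mice (NI, n = 3), lateral hemisection (HS) at 72 h (n = 3), 1 week (n = 2) and 2 weeks (n = 3), and full transection (FT) at 72 h, 1 week and 2 weeks (n = 3 each). The study's methods call the replicates biological and list more mice than samples, but no source used here says which mice make up a sample. The p-values therefore set group differences only against the spread between these samples within their groups.

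Cyclins have no catalytic activity of their own and switch on a kinase partner at a set stage of the cycle. D-type cyclins act in G1 with Cdk4 or Cdk6 and start the phosphorylation of the retinoblastoma protein, which frees E2F factors. E-type cyclins with Cdk2 then open S phase, cyclin A2 works through S phase and G2, and B-type cyclins with Cdk1 carry cells into mitosis. Transcripts of the A and B cyclins and of Cdk1 are known to be periodic and low in resting cells, whereas D cyclins follow outside growth signals. Adult microglia are mostly resting cells that can divide locally after injury.

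On GRCm38 (GENCODE vM21) the D cyclin genes lie at chr7:144929931-144939925 (*Ccnd1*, minus strand), chr6:127125162-127152193 (*Ccnd2*, minus) and chr17:47505051-47599691 (*Ccnd3*, plus). The E cyclin genes lie at chr7:38097984-38107534 (*Ccne1*, minus) and chr4:11191351-11204779 (*Ccne2*, plus), and *Cdk2* at chr10:128697939-128705031 (minus). The late members lie at chr3:36564865-36572150 (*Ccna2*), chr10:69335146-69352938 (*Cdk1*), chr13:100778650-100786570 (*Ccnb1*) and chr9:70407692-70421547 (*Ccnb2*), all on the minus strand. Values are of whole genes, summed over their exons.

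Values are normalized counts: the authors' reads per gene divided by a library factor, with column totals of 777426 to 1202186. Between 3872918 and 34099232 reads per sample lay on the genes of the table, and 1 read is worth 0.0330 to 0.292 normalized counts. Differences are given as log2 fold changes of the value plus 0.5, which understates the change of low genes, and come from 1 limma fit to all 20 samples. Calls of differentially expressed (DE) genes needed both a 2-fold change and a limma p under 0.05 once adjusted by Benjamini and Hochberg's method for all 16810 genes. The FT 1 week replicate 1 sample stood apart from the others of its group, with a chi-square per degree of freedom of 98.7 and 86.7 over gene counts against 47.7 between replicates 2 and 3, so FT 1 week results that changed without it are given both ways. FT 2 weeks replicate 1 (45.3 and 60.9 against 27.0) and HS 72 h replicate 2 (57.0 and 33.1 against 20.6) also lay farther from their groups, and no call of a member changed without either. FT 72 h replicate 2, the sample with the fewest reads, lay apart as well (30.5 and 27.2 against 13.3). Without it *Ccnd3* was called higher at FT 72 h and *Ccnb2* at HS 2 weeks. Summed levels of 10 microglial marker genes lay between 18776 and 37716 in FT 1 week samples and between 22216 and 31215 in NI, and no marker was at 0 in all samples of any group.

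Promoter sequences are shown for the members that rose most and for 2 members of the G1/S step, since the late cyclins and Cdk1 are known targets of shared promoter elements. The windows run from 250 bases before to 50 bases after the annotated start (RefSeq, GRCm38.p6), all on the minus strand and written 5′ to 3′. Capitals mark a CHR-type element (TTTGAA or TTTAAA), an E2F-type element (TTTCGCGC or TTTGGCGC) or a CCAAT box, each searched on both strands, and no 2 matches overlap. The Ccnb1 window is chr13:100786437-100786736, that of Ccnb2 chr9:70421505-70421804, that of Cdk1 chr10:69352863-69353162, that of Ccne1 chr7:38107441-38107740 and that of Cdk2 chr10:128705002-128705301.
Ccnb1: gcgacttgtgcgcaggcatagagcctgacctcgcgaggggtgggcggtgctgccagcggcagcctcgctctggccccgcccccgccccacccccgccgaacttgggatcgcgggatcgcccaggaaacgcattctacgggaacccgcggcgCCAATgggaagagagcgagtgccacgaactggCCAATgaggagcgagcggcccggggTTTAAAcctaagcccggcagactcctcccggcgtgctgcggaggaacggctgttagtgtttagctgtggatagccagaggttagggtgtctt
Ccnb2: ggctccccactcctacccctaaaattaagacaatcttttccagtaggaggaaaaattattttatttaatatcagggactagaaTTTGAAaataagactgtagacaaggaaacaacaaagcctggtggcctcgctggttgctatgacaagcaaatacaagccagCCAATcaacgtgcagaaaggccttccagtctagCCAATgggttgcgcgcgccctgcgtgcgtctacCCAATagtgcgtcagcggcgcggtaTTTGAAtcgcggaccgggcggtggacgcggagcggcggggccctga
Cdk1: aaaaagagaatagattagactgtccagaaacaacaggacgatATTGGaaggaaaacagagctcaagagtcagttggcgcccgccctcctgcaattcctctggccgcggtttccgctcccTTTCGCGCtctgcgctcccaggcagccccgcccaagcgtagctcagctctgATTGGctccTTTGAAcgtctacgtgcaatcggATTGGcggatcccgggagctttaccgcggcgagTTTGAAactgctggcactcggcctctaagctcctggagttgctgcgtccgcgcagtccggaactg
Ccne1: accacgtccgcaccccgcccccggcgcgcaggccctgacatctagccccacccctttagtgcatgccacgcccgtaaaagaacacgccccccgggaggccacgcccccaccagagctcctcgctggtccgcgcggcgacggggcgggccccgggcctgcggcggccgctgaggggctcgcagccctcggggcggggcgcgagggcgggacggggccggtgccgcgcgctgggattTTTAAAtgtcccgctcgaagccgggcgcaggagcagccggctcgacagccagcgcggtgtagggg
Cdk2: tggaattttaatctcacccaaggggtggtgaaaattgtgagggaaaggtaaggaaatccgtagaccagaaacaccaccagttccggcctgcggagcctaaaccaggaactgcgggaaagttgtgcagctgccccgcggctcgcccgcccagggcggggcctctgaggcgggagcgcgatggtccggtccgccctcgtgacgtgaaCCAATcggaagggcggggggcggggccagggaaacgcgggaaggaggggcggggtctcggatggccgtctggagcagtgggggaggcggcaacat

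Windows were given for 6 members (7 windows, as *Ccnd3* has 2 starts), and none for *Ccna2*, *Ccnd1*, *Ccnd2* and *Ccne2*. The CHR letters were in 4 of the 7 windows, those of *Ccnb1*, *Ccnb2*, *Cdk1* and *Ccne1*, and in 20.8% of the 15466 windows of the table's genes. The CCAAT box was in 5 windows, those of *Ccnb1*, *Ccnb2*, *Cdk1*, *Cdk2* and 1 of *Ccnd3*, and in 37.3% of all windows. The E2F letters were in 1 window, that of *Cdk1* (131 bases before the start), and in 1.29% of all windows. In *Ccnb1* the CCAAT boxes began 99 and 67 bases and the CHR letters 42 bases before the start. *Cdk1* held CHR letters 71 and 15 bases before its start with CCAAT boxes, read on the other strand, at 208, 80 and 48 bases. *Ccnb2* held 3 CCAAT boxes, 87, 54 and 21 bases before the start, and CHR letters at 167 bases before it and from base 4 after it. A match of letters is a description of the sequence and not a measured binding site.

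Without injury the D cyclins, above all *Ccnd1*, made up most of the transcript of these genes. Per kilobase of exon, the scale on which genes can be compared, *Ccnd1* had a level of 11.4 ± 0.821 in NI (SD, n = 3) and *Cdk2* 3.05 ± 0.329. *Ccnb2* (1.40 ± 0.249), *Cdk1* (1.11 ± 0.124), *Ccnd2* (0.965 ± 0.113), *Ccnd3* (0.946 ± 0.221), *Ccne2* (0.895 ± 0.105), *Ccnb1* (0.689 ± 0.199) and *Ccna2* (0.641 ± 0.0936) followed, and *Ccne1* was last with 0.389 ± 0.0838. Neighbours in this order differed by more than their summed SDs only from *Ccnd1* to *Cdk2*, *Cdk2* to *Ccnb2* and *Ccna2* to *Ccne1*. At 72 h the order turned over. After HS *Ccnb2* (55.9 ± 31.7 per kilobase), *Ccnb1* (25.3 ± 9.06) and *Cdk1* (23.3 ± 6.17) led, and after FT they had 48.3 ± 20.7, 21.4 ± 3.42 and 16.6 ± 1.91, ahead of *Ccnd1* with 8.85 ± 2.07 after HS and 9.45 ± 1.44 after FT (n = 3 each). *Ccnd1* led again in all 4 later groups, from 5.98 ± 0.370 per kilobase at HS 1 week (n = 2) to 9.41 ± 1.47 at FT 2 weeks.

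**Figure D1:**
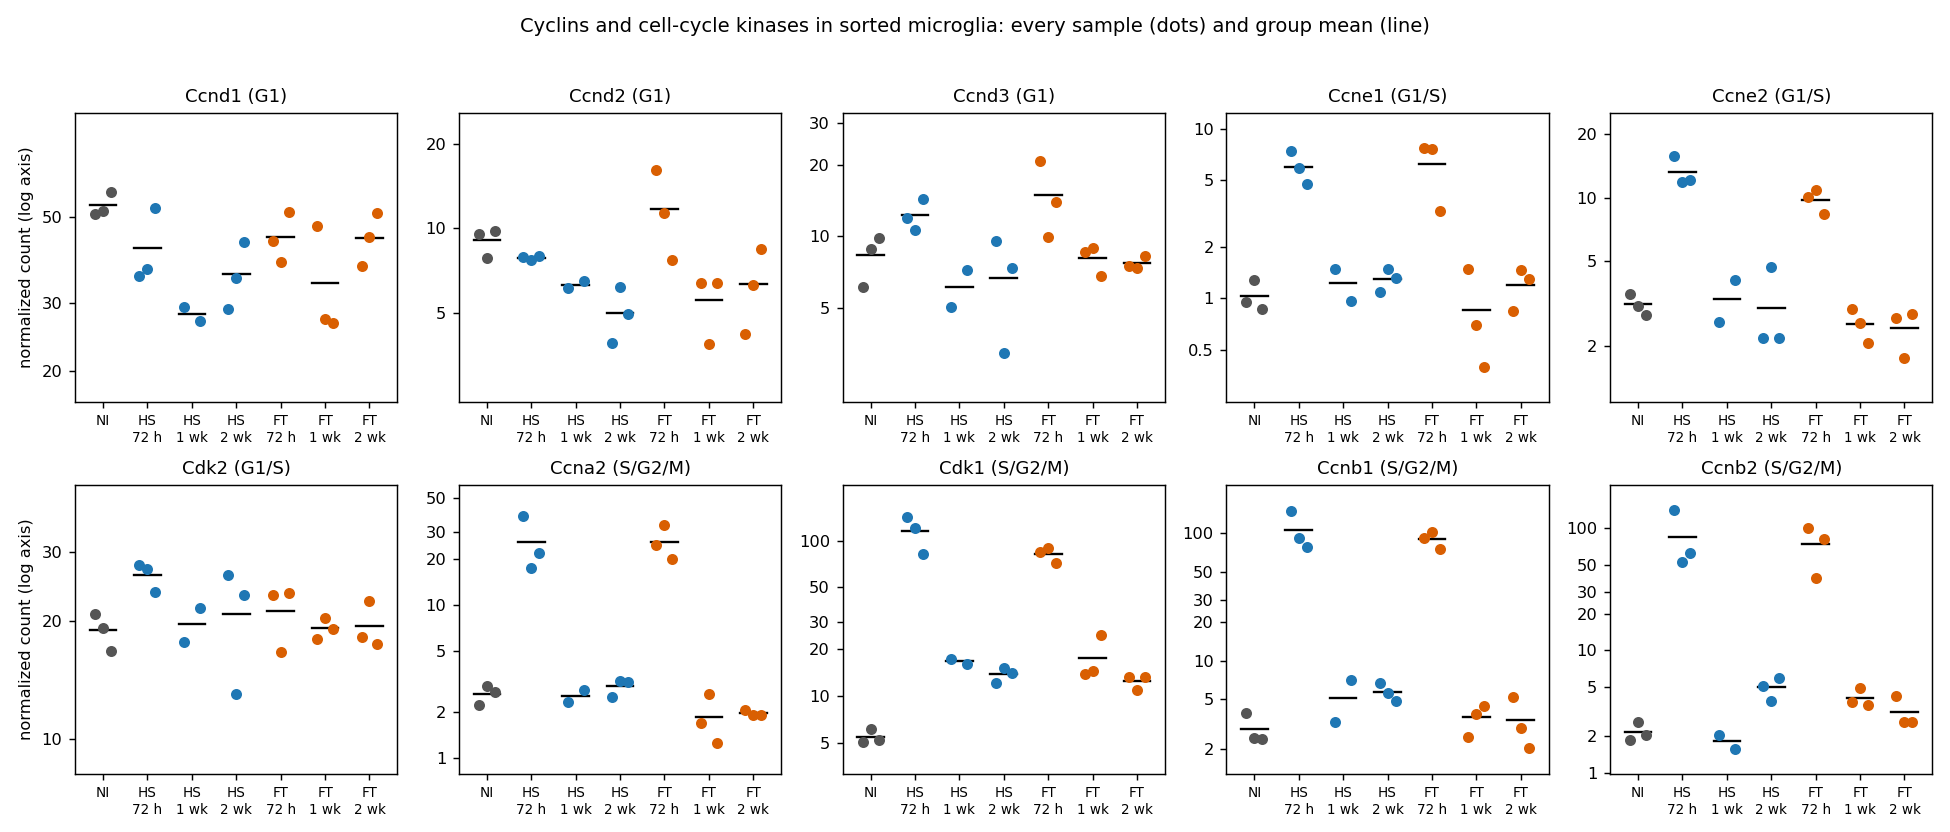
Normalized count of each of the 10 members (vertical, log axis) in every sample (dots) with the group mean (line), for NI (grey), HS (blue) and FT (orange) at each time. The A and B cyclins, Cdk1 and the E cyclins are high in the 72 h groups, and Cdk1 alone has all later samples above all NI samples.

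The share of the 3 classes in the summed per-kilobase level of the members gives the same turn in each sample. The G1 members (*Ccnd1*, *Ccnd2*, *Ccnd3*) made up 59.7 to 66.2% of the sum in NI, 5.17 to 13.2% at HS 72 h and 9.95 to 12.04% at FT 72 h. The S, G2 and M members (*Ccna2*, *Cdk1*, *Ccnb1*, *Ccnb2*) went from 16.4 to 19.7% in NI to 78.1 to 88.6% at HS 72 h and 80.02 to 82.9% at FT 72 h. The sum itself was 21.0 to 21.9 per kilobase in NI, 104 to 187 at HS 72 h and 95.6 to 134 at FT 72 h. At 1 and 2 weeks the sum was 17.8 to 24.0 in every HS and FT sample, but the S, G2 and M share, at 24.1 to 44.3%, lay above that of the 3 NI samples in all 11 of them. The class did not move as 1. Group means per kilobase at these times were 2.54 to 3.59 for *Cdk1* (NI 1.11) and 1.18 to 3.25 for *Ccnb2* (NI 1.40). They were 0.804 to 1.35 for *Ccnb1* (NI 0.689) and 0.457 to 0.722 for *Ccna2* (NI 0.641). *Ccnd1*, a G1 member, had 5.98 to 9.41 (NI 11.4). These shares were not tested, and they rest on the union exon length of each gene.

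**Figure D2:**
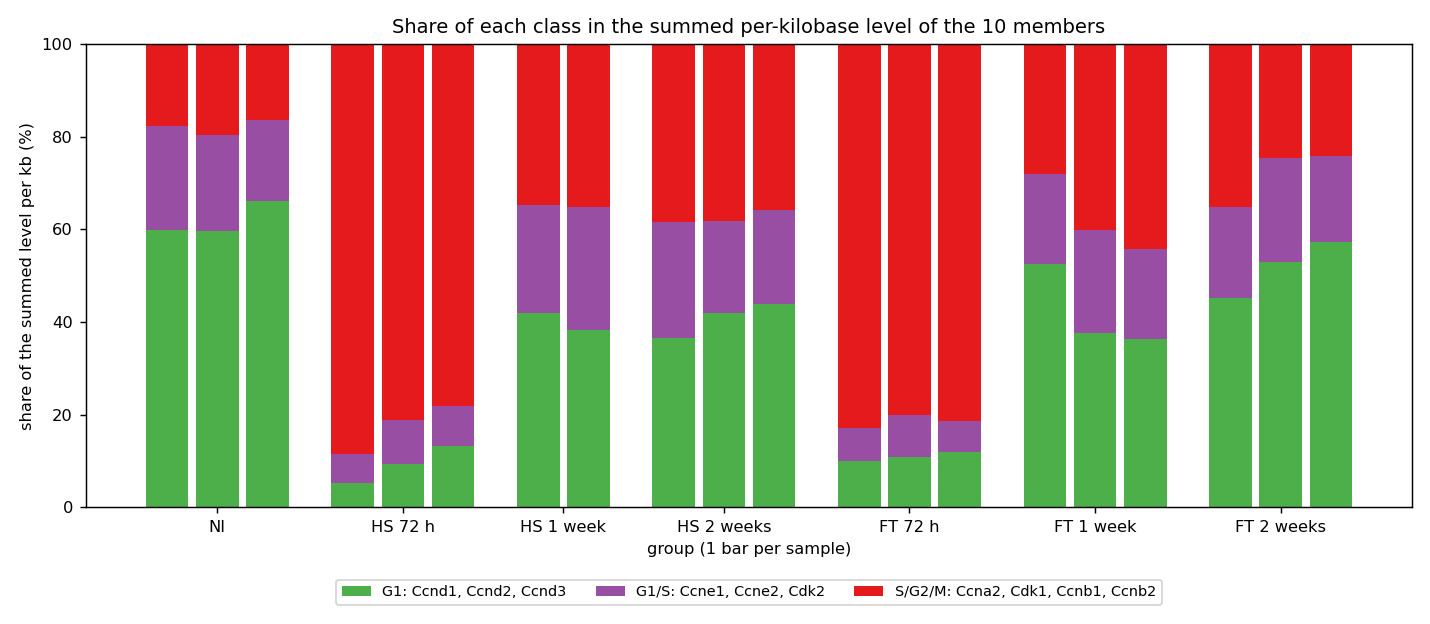
Share of the G1, G1/S and S/G2/M members in the summed per-kilobase level of the 10 members (vertical, %), 1 bar per sample, grouped by injury and time. The S/G2/M share is 16.4 to 19.7% in NI and 78.1 to 88.6% in the 6 samples at 72 h.

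At 72 h, the question was which steps of the cycle were raised by each injury against NI. After HS 6 of the 10 members were called higher and 0 lower, where 9.08% of all genes were called higher and 4.31% lower. After FT the same 6 members were called higher and 0 lower, against 8.14% and 4.09% of all genes. None of the 10 had a lower level at an unadjusted p under 0.05 in either comparison. All samples lay above all NI samples for 8 of the 10 members after HS and 7 after FT, as they did for 24% and 22.2% of all genes. All 4 S, G2 and M members rose after both injuries, as did 2 of the 3 G1/S members (*Ccne1* and *Ccne2*), whereas *Cdk2* and the 3 G1 members were not called. The median log2 fold change was 4.57 (HS) and 4.25 (FT) for the S, G2 and M members, 1.91 and 1.497 for the G1/S members, and -0.19 and 0.30 for the G1 members, where the median over all genes was -0.11 and -0.09. In bulk samples, more cells in cycle and more transcript per cycling cell cannot be told apart.

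The D cyclins connect outside signals to the cycle. *Ccnd1* had 51.1, 51.9 and 58.1 normalized counts in the NI samples, 35.3, 36.8 and 52.9 at HS 72 h and 43.6, 38.3 and 51.7 at FT 72 h, so that both groups overlapped NI. Its log2 fold change was -0.38 (standard error (SE) 0.22, limma adjusted p = 0.202) after HS and -0.28 (SE 0.22, adjusted p = 0.384) after FT. *Ccnd2* had 9.59, 7.85 and 9.78 in NI, 7.89, 7.73 and 7.995 at HS 72 h and 16.1, 11.4 and 7.75 at FT 72 h, again with overlap of FT with NI, and log2 fold changes of -0.19 and 0.30. *Ccnd3* was the D cyclin with the highest change and its 72 h samples (11.9, 10.6 and 14.4 after HS, 20.7, 9.93 and 13.98 after FT) all lay above the NI samples (6.14, 8.88 and 9.88). Its log2 fold changes of 0.56 after HS (adjusted p = 0.186) and 0.77 after FT (95% interval 0.13 to 1.41, adjusted p = 0.0747, limma) did not pass. Without FT 72 h replicate 2, the lowest of its group, *Ccnd3* passed after FT with 1.02 (adjusted p = 0.0334). Some reads of these genes could belong to neighbours, as 1100 exon bases of *Ccnd1* overlap *LTO1*, 361 of *Ccnd3* overlap *Bysl* and 368 of *Ccnd2* overlap *9330179D12Rik*, all on the other strand, and the strand setting of the counts is not given in the sources used here.

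The E cyclins, which bind Cdk2 at the entry to S phase, were low in NI and rose at 72 h. *Ccne1* had 0.953, 1.29 and 0.863 normalized counts in NI, 7.37, 5.84 and 4.72 at HS 72 h and 7.74, 7.59 and 3.29 at FT 72 h, with no overlap. It rested on 9 to 16 reads per NI sample and 23 to 223 reads per 72 h sample. Its log2 fold change was 2.07 (SE 0.33, limma adjusted p = 7.35e-05) after HS and 2.05 (SE 0.33, adjusted p = 8.77e-05) after FT. *Ccne2* went from 3.52, 3.09 and 2.78 to 15.7, 11.9 and 12.1 after HS (log2 fold change 1.91, SE 0.27, adjusted p = 2.39e-05) and to 10.1, 10.8 and 8.37 after FT (1.497, SE 0.27, adjusted p = 0.000373), also with no overlap. 609 exon bases of *Ccne2* overlap *Ints8* on the other strand.

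*Cdk2*, the kinase partner of both E cyclins, moved little beside them. It had 20.9, 19.2 and 16.8 normalized counts in NI, 27.8, 27.1 and 23.8 at HS 72 h and 23.3, 16.6 and 23.6 at FT 72 h. The HS samples all lay above NI and the FT samples overlapped it. The log2 fold change was 0.46 after HS (95% interval 0.00 to 0.92, limma adjusted p = 0.124) and 0.15 after FT (95% interval -0.31 to 0.60, adjusted p = 0.662), so that a change of 2-fold lay outside both intervals.

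*Ccna2*, the cyclin of S phase and G2, had 2.20, 2.96 and 2.69 normalized counts in NI, 38.0, 17.5 and 21.7 at HS 72 h and 24.8, 33.3 and 19.9 at FT 72 h. Every 72 h sample lay above every NI sample. Its log2 fold change was 3.01 (SE 0.28, limma adjusted p = 8.0e-08) after HS and 3.06 (SE 0.28, adjusted p = 6.65e-08) after FT, the smallest of the 4 S, G2 and M members. 510 exon bases of *Ccna2* overlap *Exosc9* on the other strand.

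The mitotic B cyclins showed the largest changes of the 10 members. *Ccnb1* went from 3.87, 2.45 and 2.40 normalized counts in NI to 150, 92.7 and 77.5 at HS 72 h and 92.6, 103 and 74.8 at FT 72 h. This is a log2 fold change of 4.95 (SE 0.31, limma adjusted p = 3.02e-10), or 30.8-fold, after HS and 4.75 (SE 0.31, adjusted p = 5.35e-10), or 26.9-fold, after FT. *Ccnb2* went from 1.85, 2.57 and 2.01 to 141, 52.8 and 62.5 after HS (4.89, SE 0.34, adjusted p = 1.08e-09) and to 101, 39.1 and 81.7 after FT (4.72, SE 0.34, adjusted p = 2.25e-09). HS 72 h replicate 1 was the highest HS sample for both genes and for *Ccna2* and *Cdk1*. Of the 50-base stretches of *Ccnb1* transcripts, 23.4% also occur in other genes, mostly in the pseudogene *Ccnb1-ps* (18.9%), whereas *Ccnb2* and *Cdk1* share none.

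*Cdk1*, the kinase that the B cyclins switch on, had 5.06, 6.18 and 5.18 normalized counts in NI, 142, 121 and 82.2 at HS 72 h and 84.1, 90.0 and 71.5 at FT 72 h. Its log2 fold change was 4.24 (SE 0.22, limma adjusted p = 2.71e-11) after HS and 3.78 (SE 0.22, adjusted p = 9.46e-11) after FT. These were the lowest adjusted p-values among the members in both comparisons. The plot of changes against NI shows the members in the order of the cycle, with class medians at 72 h that are larger for each later class.

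**Figure D3:**
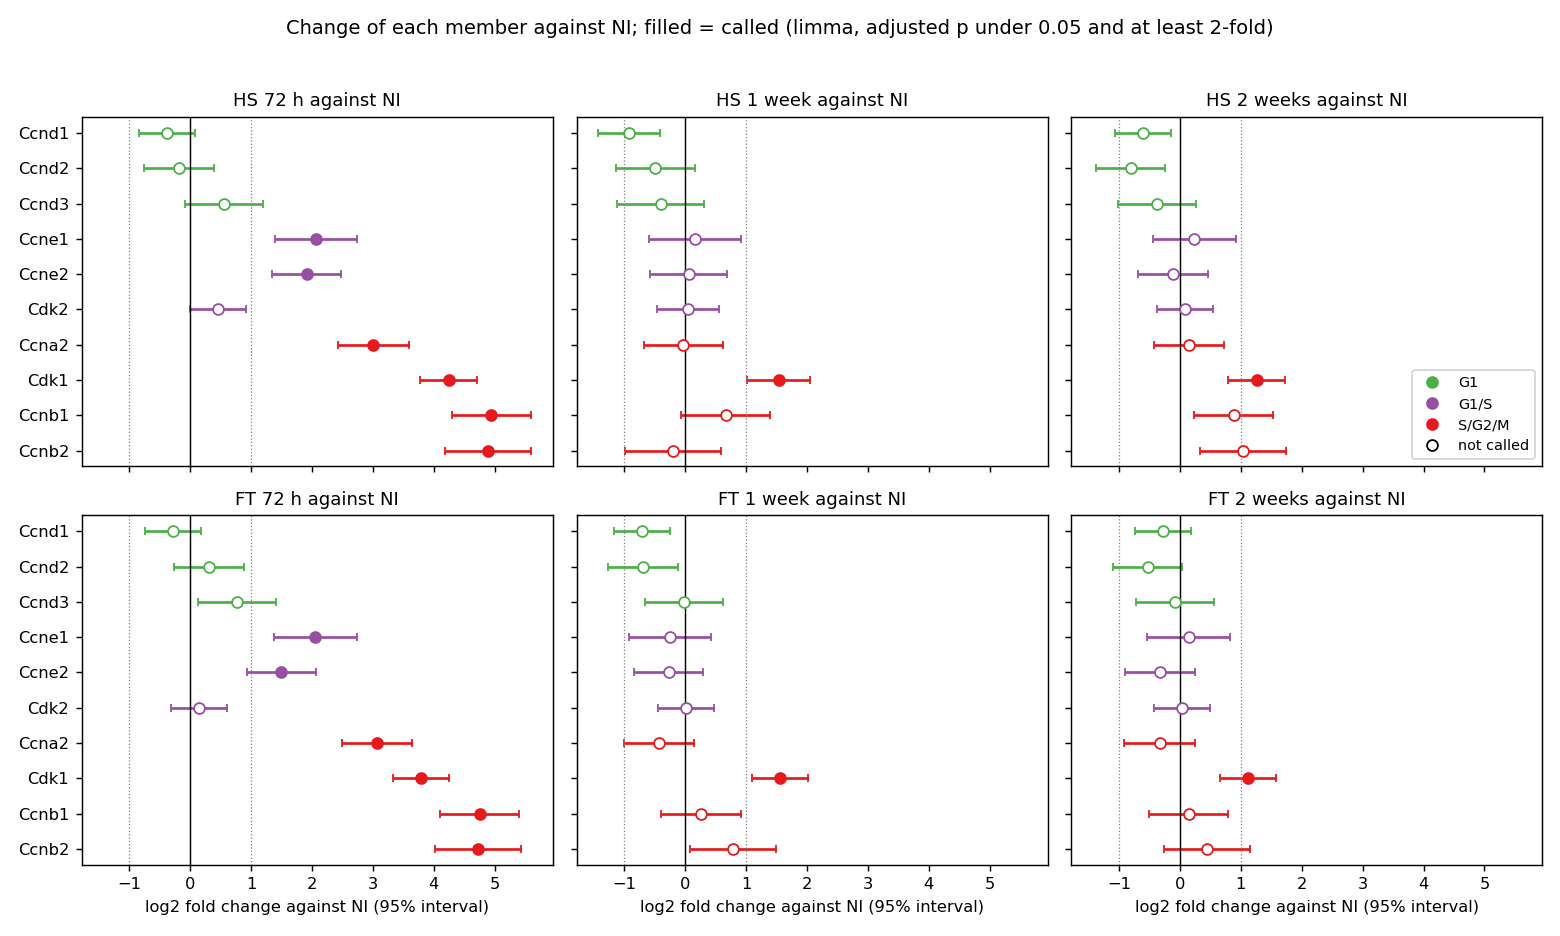
Log2 fold change against NI (horizontal) of each member, with its 95% interval, for the 6 injured groups; colour gives the class, filled points were called by limma and dotted lines mark 2-fold. 6 members are filled in both 72 h panels, and Cdk1 is the 1 filled point in each of the 4 later panels.

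Levels of other cell types were read beside these results, since the reporter also marks monocytes. The summed level of 8 monocyte and macrophage markers was 76.9 to 78.1 in NI, 134 to 203 at HS 72 h and 143 to 444 at FT 72 h (the highest in FT 72 h replicate 1), 69.7 to 128 at 1 week and 46.2 to 80.9 at 2 weeks. Of these 8, *Ccr2*, *Chi3l3* and *S100a4* were called higher at HS 72 h, and these with *Ly6c2* and *Plac8* at FT 72 h. The sum of 10 microglial markers was 28382 to 28940 at HS 72 h and 26698 to 32608 at FT 72 h. HS 72 h replicate 1, the highest HS sample for the S, G2 and M members, had the lowest monocyte and macrophage sum of its group (134). Its sums of fibroblast and pericyte (82.1), oligodendrocyte (2064) and astrocyte (467) markers were the highest of that group. Immediate-early and heat-shock genes (5 listed) summed to 3051 to 5158 in NI, 1431 to 2107 at HS 72 h and 1366 to 1818 at FT 72 h. In the later groups this sum was 3568 to 3813 at HS 1 week, 987 to 5834 at HS 2 weeks, 503 to 2906 at FT 1 week and 420.0 to 4381 at FT 2 weeks, with the lowest value of the 2-week groups in replicate 1 of each. Without HS 2 weeks replicate 1, *Ccnd3* was called lower than at HS 72 h (-1.24, adjusted p = 0.0246, limma), and no other call of a member changed without either sample. The part of these lists in the levels of the members was not tested. Without FT 72 h replicate 1, the 6 members were still called higher at FT 72 h. The other FT 72 h samples also had monocyte and macrophage sums above NI (159 and 143). Leaving out replicate 1 is thus no test of the part of these cells.

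At 1 and 2 weeks only *Cdk1* was still called higher than in NI. 1 of the 10 members was called higher and 0 lower in each of the 4 comparisons, where 1.7% (HS 1 week), 2.43% (HS 2 weeks), 2.86% (FT 1 week) and 3.53% (FT 2 weeks) of all genes were called higher and 0.482%, 0.797%, 1.2% and 1.36% lower. *Cdk1* had 17.4 and 16.1 normalized counts at HS 1 week, 12.2, 15.2 and 14.01 at HS 2 weeks, 13.8, 14.5 and 24.8 at FT 1 week and 13.3, 10.97 and 13.3 at FT 2 weeks. All 11 samples lay above the 3 NI samples, of which the highest was 6.18. The log2 fold change was 1.54 (SE 0.25, limma adjusted p = 0.000669) at HS 1 week, 1.26 (SE 0.22, adjusted p = 0.000998) at HS 2 weeks, 1.56 (SE 0.22, adjusted p = 8.29e-05) at FT 1 week and 1.12 (SE 0.22, adjusted p = 0.00184) at FT 2 weeks. *Cdk1* was thus called higher in all 6 injured groups, which share the NI samples, as were 0.993% of all genes, and its 17 injured samples all lay above NI, as they did for 4.94% of all genes. With every column scaled to 1 total the change at 2 weeks fell below 2-fold, to 0.96 after HS (adjusted p = 0.00646) and 0.75 after FT (adjusted p = 0.0189), or 1.25 and 1.11 relative to the median of all genes at that scaling. The summed level of 4 oligodendrocyte precursor markers also lay above NI (10.5 to 13.9) in all 11 later samples (26.02 to 93.6). *Cspg4* was the 1 marker of these 4 called higher, from a mean of 2.88 in NI to 22.6 to 51.6 in the later groups, while the group means of *Pdgfra*, *Olig2* and *Sox10* were all below those in NI. The part of these cells in the level of *Cdk1* was not tested.

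The level of *Cdk1* was also set against that of its cyclins in the same sample. The ratio of *Cdk1* to *Ccnb1* in the same sample was 1.31 to 2.53 in NI, 0.949 to 1.302 at HS 72 h and 0.870 to 0.956 at FT 72 h. It was 2.31 to 5.33 at HS 1 week, 3.82 to 5.63 at FT 1 week, 1.81 to 2.90 at HS 2 weeks and 2.58 to 6.44 at FT 2 weeks. At 72 h the ratio was lower than in NI with no overlap, but at HS 72 h only just (at most 1.302, against at least 1.308 in NI). In FT at both later times it was higher than in NI with no overlap. At FT 2 weeks this too was only just so (at least 2.58, against at most 2.53 in NI). The ratio of *Cdk1* to *Ccna2* was 1.93 to 2.30 in NI and lay above this in all 17 injured samples, with a range of 2.70 to 6.89 at 72 h and of 4.46 to 19.7 later. The ratio of *Cdk1* to *Ccnb2* was 2.40 to 2.74 in NI and 0.833 to 2.30 at 72 h. It was 8.53 to 10.3 at HS 1 week, 2.92 to 7 at FT 1 week and 3.16 to 5.12 at FT 2 weeks, above NI, but 2.36 to 3.94 at HS 2 weeks, which overlapped NI. Per kilobase *Cdk1* lay below *Ccnb2* at HS 2 weeks (2.79 ± 0.308 against 3.25 ± 0.683, n = 3), by less than their spread. These ratios are of normalized counts within a sample, not per kilobase, and were not tested. They rest on 16 to 34 *Ccna2* reads in the FT 1 week samples and on 13 and 15 *Ccnb2* reads in the HS 1 week samples. In NI they rest on 19 to 65 *Ccnb1* and 20 to 31 *Ccnb2* reads.

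**Figure D4:**
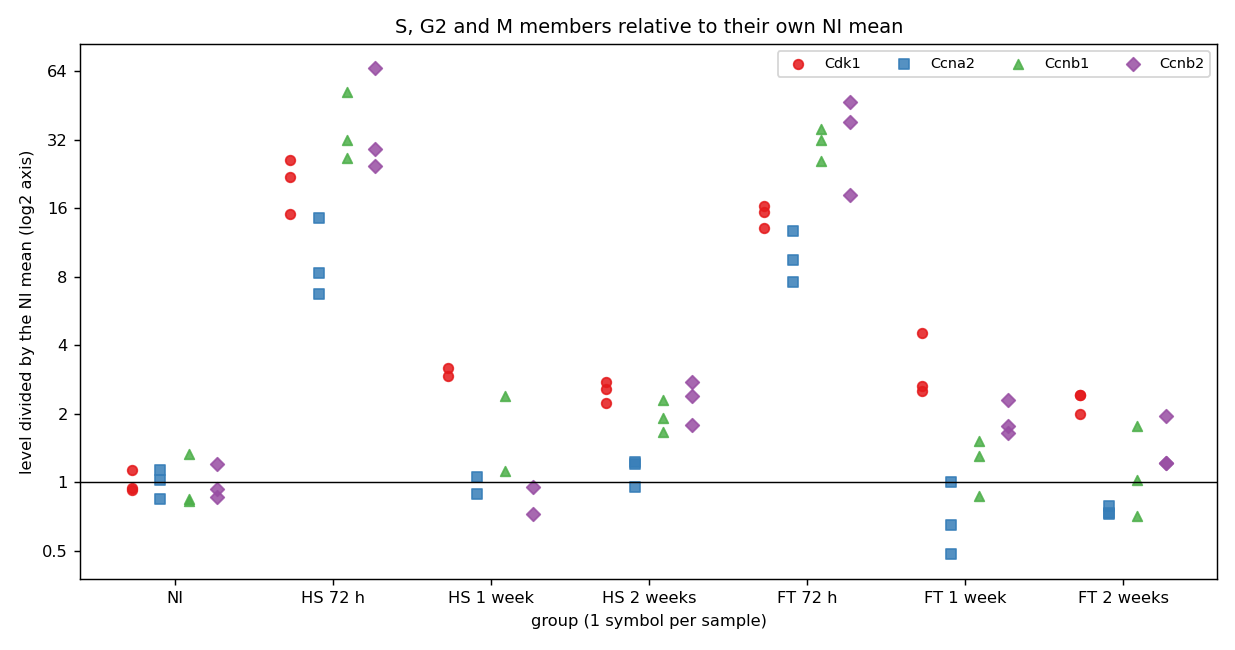
Level of Cdk1, Ccna2, Ccnb1 and Ccnb2 in every sample divided by the NI mean of the same gene (vertical, log2 axis), by group. At 1 and 2 weeks Cdk1 lies at 2.00 to 4.54 times its NI mean in all 11 samples, and Ccna2 at 0.482 to 1.23 times.

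None of the other S, G2 and M members was called against NI by limma in the later groups, though the B cyclins lay above NI in some. *Ccna2* had log2 fold changes of -0.43 to 0.15 against NI in the 4 later groups, and at FT 2 weeks its samples (2.06, 1.92 and 1.91) all lay below NI (2.20 to 2.96) with -0.33 (95% interval -0.91 to 0.25, limma adjusted p = 0.581). *Ccnb2* had 5.15, 3.85 and 5.92 normalized counts at HS 2 weeks, above all NI samples, and a log2 fold change of 1.04 (SE 0.34, adjusted p = 0.0895) that did not pass. It passed with 2 of the 3 count models on recovered reads and not with edgeR's quasi-likelihood test. *Ccnb1* had 6.71, 5.56 and 4.83 at HS 2 weeks, also above NI (2.40 to 3.87), with 0.88 (SE 0.31, adjusted p = 0.129). At FT 2 weeks *Ccnb1* overlapped NI (log2 fold change 0.14) and *Ccnb2* lay just above it (2.60 to 4.21 against at most 2.57, log2 fold change 0.44).

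*Ccnd1* was the member with the lowest log2 fold changes at 1 week. It had 29.4 and 26.9 normalized counts at HS 1 week and 47.4, 27.3 and 26.7 at FT 1 week, beside an NI range of 51.1 to 58.1. The log2 fold change was -0.92 after HS (95% interval -1.43 to -0.40, limma adjusted p = 0.0486) and -0.71 after FT (95% interval -1.17 to -0.25, adjusted p = 0.0566). Neither reached 2-fold, so *Ccnd1* was not called. Without FT 1 week replicate 1, which had the highest value of its group, the FT value was -0.98 (adjusted p = 0.00298). With every column scaled to 1 total *Ccnd1* was called lower in both, at -1.13 after HS and -1.05 after FT, but this scaling also lowered the median of all genes, and relative to that median the values were -0.96 and -0.73, under 2-fold. At 2 weeks it had 29.0, 34.8 and 43.1 after HS (-0.60, adjusted p = 0.148) and 37.3, 44.5 and 51.2 after FT (-0.28, adjusted p = 0.549). *Ccnd2* also had negative log2 fold changes in all 4 later groups, with 0 calls. At HS 2 weeks its value of -0.81 (limma adjusted p = 0.106) was below that of *Ccnd1*. At HS 1 week, FT 1 week and FT 2 weeks *Ccnd2* gave -0.49, -0.69 and -0.53 (limma adjusted p = 0.581, 0.161 and 0.309). *Ccnd3* gave -0.40 to -0.02 in the 4 later groups, also with 0 calls. *Ccne1*, *Ccne2* and *Cdk2* gave -0.33 to 0.24.

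The change over time was tested within each injury. From 72 h to 1 week 6 of the 10 members were called lower after HS and 6 after FT, where 4.07% and 2.62% of all genes were called lower. From 72 h to 2 weeks the counts were again 6 and 6, against 3.37% and 2.68% of all genes, and they were the members raised at 72 h (*Ccna2*, *Ccnb1*, *Ccnb2*, *Cdk1*, *Ccne1* and *Ccne2*). *Ccnb2* changed most after HS, with -5.09 at 1 week (SE 0.38, limma adjusted p = 1.43e-08), and *Ccnb1* after FT, with -4.49 at 1 week (SE 0.31, adjusted p = 4.08e-09). *Cdk1* fell by 2.71 (HS) and 2.22 (FT) on the log2 scale by 1 week, less than the 3.04 to 5.09 of the A and B cyclins. *Ccnd2* fell by 0.99 from 72 h to 1 week after FT (adjusted p = 0.0364), just under 2-fold, and passed at -1.10 (adjusted p = 0.0353) without FT 1 week replicate 1 and with all 3 count models, at about -1.08. The fall of *Ccne1* by 1 week after HS depended on HS 1 week replicate 2, as it did not pass without that sample (-1.68, adjusted p = 0.0518).

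Between 1 and 2 weeks no member was called by limma in either injury, where 0.0119% (HS) and 0.0714% (FT) of all genes were called in either direction. At an unadjusted p under 0.05 there was 1 member after HS, *Ccnb2* with 1.24 (adjusted p = 0.698), and 0 after FT. Of all 16810 genes, 789 after HS and 773 after FT had such a p. The edgeR and DESeq2 models called none of the 10 either.

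The severity of the lesion was compared at each time, and no member was called between FT and HS. Over all genes limma called 0% at 72 h, 1 week and 2 weeks, while 505, 724 and 438 genes had an unadjusted p under 0.05. Of the members, 0, 1 and 1 had an unadjusted p under 0.05: *Ccnb2* at 1 week (0.99, 95% interval 0.20 to 1.78) and *Ccnb1* at 2 weeks (-0.74, 95% interval -1.39 to -0.09). The edgeR and DESeq2 models called none of the 10 at any time. At 72 h the differences ran from -0.46 for *Cdk1* (95% interval -0.92 to 0.00) to 0.49 for *Ccnd2* (-0.08 to 1.06), and over the 10 members the intervals reached from -0.98 to 1.06. Differences of nearly 2-fold lay within these intervals, so equal levels after HS and FT were not shown. The change from 72 h to 1 or 2 weeks was not called different between FT and HS for any member (limma, lowest adjusted p = 0.996), and 1 member, *Ccnb2* at 1 week, had an unadjusted p under 0.05.

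The partners and regulators of these genes were read from lists of the pathway, which were chosen with earlier results of these data known. Of the G1 kinases, *Cdk4*, the partner of D cyclins, rose 3.13-fold after HS (log2 fold change 1.65, SE 0.16, limma adjusted p = 1.75e-07) and 2.57-fold after FT (1.36, adjusted p = 2.56e-06) at 72 h. *Cdk6*, the other partner, had 0.56 (adjusted p = 0.0803) and 0.48 (adjusted p = 0.143). Of 10 genes that activate or bind CDKs, 6 were called higher after HS and 5 after FT, among them *Cks1b*, a small CDK-binding subunit (3.95 and 3.85), and the phosphatases *Cdc25b* (2.85 and 3.01) and *Cdc25c* (2.52 and 2.50), which remove inhibitory phosphate from CDKs. *Wee1*, the kinase that adds this phosphate, rose as well (1.84 and 1.68).

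Of 6 CDK inhibitor genes in the table, 3 were called higher and 1 lower after each injury at 72 h. *Cdkn3*, a phosphatase that acts on CDKs rather than a binding inhibitor, rose by 4.21 after HS and 4.05 after FT, the Cdk4 and Cdk6 inhibitors *Cdkn2d* by 2.24 and 1.88 and *Cdkn2c* by 1.64 and 1.6003. *Cdkn1c* (p57) fell by 1.46 (adjusted p = 0.00184) and 1.58 (adjusted p = 0.00101). *Cdkn1a* (p21), with 1.18 and 1.06, did not pass (adjusted p = 0.0631 and 0.101), nor did *Cdkn1b* (p27) with -0.10 and -0.39 (all limma). *Cdkn2c* was also called higher at FT 1 week (1.08) and FT 2 weeks (1.01).

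Of 13 genes of the Rb and E2F families, 5 were called higher and 0 lower after both injuries at 72 h. They were the activators *E2f1* (2.36 and 2.31) and *E2f2* (1.92 and 1.96), the repressors *E2f7* (1.67 and 1.66) and *E2f8* (3.12 and 2.50), and *Tfdp1*, an E2F partner. Of 6 genes of the MuvB, B-Myb and FoxM1 machinery, which acts on CHR elements, *Foxm1* rose (2.24 and 1.99), *Mybl2* had 0.96 and 0.98 and stayed just under 2-fold, and *Lin54* (0.59 and 0.56) and *Lin9* (0.36 and 0.37) did not pass. The promoter windows of *Ccnb1*, *Ccnb2*, *Cdk1* and the G1/S member *Ccne1* printed above hold CHR letters, as do 20.8% of all windows. No binding was measured here.

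Of 13 S-phase entry genes, 13 were called higher after HS and 12 after FT, with a median log2 fold change of 2.21 and 2.02. *Rrm2*, a subunit of ribonucleotide reductase, rose by 5.29 and 4.79 and *Mcm5*, part of the replicative helicase, by 3.43 and 3.16, and *Cdt1* stayed just under 2-fold after FT (0.95). All 12 mitosis genes were called higher after both injuries (medians 3.81 and 3.61), among them the proliferation marker *Mki67* (3.93 and 4.20), *Top2a* (4.66 and 4.59) and *Plk1* (4.36 and 4.23). Of 10 genes of cyclin degradation, 4 were called higher after each injury: *Ube2c* (4.34 and 3.74), *Cdc20* (3.01 and 2.93), *Ccnf* (3.23 and 2.89) and *Fbxo5* (2.58 and 2.10). The first 2 serve the anaphase-promoting complex that destroys B cyclins, and *Fbxo5* inhibits it.

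Cyclins and CDKs outside the division cycle were read at 72 h as well. Of 11 other cyclins, *Ccng1*, a p53 target, rose (1.18 and 1.17), *Ccnl1* was called lower after HS, and 9 were not called in either. *Ccng2* had -0.84 and -0.88 and *Ccnc*, the Mediator cyclin, 0.87 and 0.73, under 2-fold. Of 5 transcription kinases, *Cdk9* had -0.84 after HS and was called lower after FT (-1.02, limma adjusted p = 0.00109), and 4 were not called. Of 6 growth signal genes, *Igf1* (3.50 and 3.84) and *Csf1* (1.20 and 1.51) rose, and both were called higher in all 6 injured groups. *Igf1r* was called lower after HS with -1.001 and had -0.98 after FT, and *Myc* (-0.12 and -0.94) and *Csf1r*, the receptor microglia depend on (0.00 and -0.01), were not called.

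**Figure D5:**
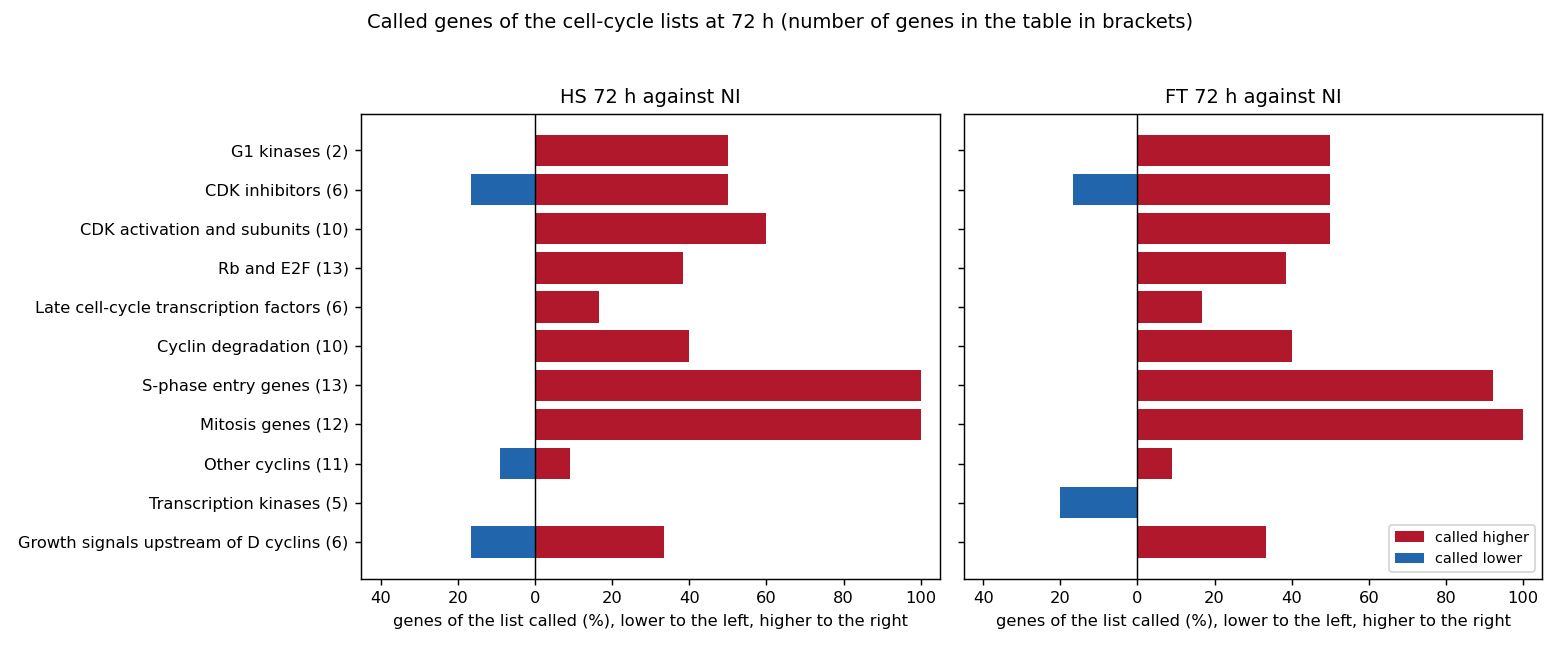
Share of the genes of each cell-cycle list (in brackets the number in the table) called higher (right, red) or lower (left, blue) at HS 72 h and FT 72 h against NI, by limma. All 12 mitosis genes were called higher in both, and 1 of 11 other cyclins.

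At the later times few of these genes were called. No gene of the mitosis or S-phase lists was called at HS 1 week, FT 1 week or FT 2 weeks. At HS 2 weeks 4 of 12 mitosis genes were called higher, *Aurkb* (1.40), *Top2a* (1.21), *Cenpe* (1.02) and *Cenpa* (1.00), with *Rrm2* (1.43), *Cks1b* (1.34) and *Cdkn3* (1.10). At FT 2 weeks *E2f1* (1.16), *Cks1b* (1.13) and *Cdkn2c* (1.01) were. The difference between HS and FT at 2 weeks was not called for any of these genes (limma).

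Genes with the pattern most like each member were found by Pearson's r over the 20 samples, among 14051 genes, as a description; the samples share groups, so high r values follow the 72 h groups. *Ccnb1* was most like *Tpx2* (r = 0.992), *Top2a* (0.990) and *Kif20a* (0.990), and *Ccnb2* like *Gtse1* (0.981). *Ccna2* was most like *Esco2* (0.982) and *Cenpf* (0.982), *Ccne1* like *Birc5* (0.964) and *Ccne2* like *Pbk* (0.960). *Cdk1* was most like *2700094K13Rik* (0.976), *Rab32* (0.970) and *Tacc3* (0.970). *Rab32*, a small GTPase of vesicle traffic, had 54.0 ± 3.88 normalized counts in NI (SD, n = 3), 255 ± 44.0 at HS 72 h and 91.7 to 161 in the 11 later samples, so that like *Cdk1* it stayed above its NI range of 50.2 to 57.9. *Ccnd3* was most like *Mybl2* (0.907), *Ccnd1* like *Rab35* (0.881), *Cdk2* like *Ralb* (0.857) and *Ccnd2* like *S100a10* (0.841).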

How the data were processed

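RNA-Seq libraries of sorted eGFP-high microglia (SMARTer ultra low input amplification and Nextera library kits) gave 1 table of 16810 genes and 20 samples. Per the submitters' processing notes and the study's methods, the authors mapped reads to mm10 with TopHat2 2.0.9, counted them per gene with HTSeq 0.5.4p3 and normalized by library size with edgeR 3.3.6. The deposited signal values are the authors' gene counts divided by 1 factor per sample: 100% of 336200 values were whole multiples of 1 read within 0.001 read, and these counts served the count models. Column totals were 777426 to 830481 in NI and 878070 to 1202186 in injured samples.

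The members and gene lists were chosen with earlier results of these data known. As the deposited values are not counts, limma 3.58.1 (R 4.3.3) was used, fitted to log2(value + 0.5) over all 20 samples, 1 mean per group with an intensity trend, without a filter, and p-values were adjusted (Benjamini-Hochberg) over 16810 genes. Named were the 10 members, up to 4 genes per list with the smallest adjusted p at 72 h, direct partners, and the 3 most similar genes per member among genes with a mean of at least 1. *Tfdp1*, *Cdt1*, *Ccnl1* and the genes called at later times were named after their values were seen. Levels per kilobase used union exon lengths (GENCODE vM21, GRCm38). In simulated data for HS 72 h against NI (16810 genes, 200 changed), 100% of 50 genes raised 4-fold and 38% of 50 raised 2-fold were called, with 6 false calls. For HS 1 week against NI these shares were 96% and 28%, with 9 false calls. Genes of low level were not drawn for change, so these shares do not cover them. 12 other settings, among them edgeR 4.0.16 and DESeq2 1.42.0 on the recovered counts, and leaving out each of 20 samples were tried. The precision of low genes is set by their reads, as few as 5 for *Ccne1* in 1 sample.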

Additional observations from a re-analysis of the deposited data

Results flagged for a closer look

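The effect of injury on 6 members differed between times, as tested by limma within each injury (all called lower than at 72 h, against the same NI samples). The values are log2 changes from 72 h. At HS 1 week they were -4.28 for *Ccnb1*, -5.09 for *Ccnb2*, -3.04 for *Ccna2*, -2.71 for *Cdk1*, -1.90 for *Ccne1* and -1.85 for *Ccne2*. At HS 2 weeks they were -4.07 for *Ccnb1*, -3.85 for *Ccnb2*, -2.86 for *Ccna2*, -2.99 for *Cdk1*, -1.83 for *Ccne1* and -2.03 for *Ccne2*. At FT 1 week they were -4.49 for *Ccnb1*, -3.92 for *Ccnb2*, -3.50 for *Ccna2*, -2.22 for *Cdk1*, -2.30 for *Ccne1* and -1.77 for *Ccne2*. At FT 2 weeks they were -4.61 for *Ccnb1*, -4.28 for *Ccnb2*, -3.40 for *Ccna2*, -2.66 for *Cdk1*, -1.91 for *Ccne1* and -1.82 for *Ccne2*. In all 4 comparisons every later sample lay below every 72 h sample for these 6 genes. The genes were picked by calls on the same samples, so this only describes them, and no share over all genes is given. With each sample left out in turn 1 of these calls was lost, *Ccne1* at HS 1 week without HS 1 week replicate 2 (-1.68, limma adjusted p = 0.0518).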

How the results depend on the processing

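The 6 members called higher at 72 h after each injury passed under all 12 other settings and without any 1 sample. No called result changed direction. At HS 1 week 2 members were called, in place of 1, under quantile normalization, with every column scaled to 1 total and with no fold limit, the added one being *Ccnd1*. At HS 2 weeks 2 were called when the fit held HS 2 weeks and NI samples alone, with edgeR's likelihood ratio test and with DESeq2, the added one being *Ccnb2*. With every column scaled to 1 total 3 were called at FT 1 week (*Ccnd1* and *Ccnd2* added) and 0 at FT 2 weeks (*Cdk1* lost, 0.75). At HS 2 weeks the count stayed at 1 with another gene, as *Cdk1* was lost (0.96) and *Ccnd2* was called lower (-1.12). This scaling moved the median of all genes to -0.52 (72 h), -0.17 (1 week) and -0.29 (2 weeks) after HS and to -0.48, -0.32 and -0.36 after FT. Relative to it *Cdk1* stood at 1.25 and 1.11 at 2 weeks, and the *Ccnd1* and *Ccnd2* calls gained at 1 and 2 weeks were at -0.96 to -0.69. With *Ccne1*, *Ccne2* and *Cdk2* counted among the G1 members, the median of that class was 0.51 at HS 72 h, -0.18 at HS 1 week, -0.25 at HS 2 weeks and -0.26 at FT 1 week.

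Leaving out 1 sample, the count of members called was 6 to 6 at HS 72 h, 6 to 7 at FT 72 h, 1 to 2 at HS 2 weeks (2 without HS 72 h replicate 1 or FT 72 h replicate 2) and 1 to 1 in the other groups against NI. Against 72 h it was 5 to 6 at HS 1 week (5 without HS 1 week replicate 2) and 6 to 7 at HS 2 weeks, FT 1 week and FT 2 weeks, and it was 0 to 0 between 1 and 2 weeks and between FT and HS.

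With the replicate block, the number of members called was again 6 at 72 h after each injury and 1 in each later group (*Cdk1* at HS 1 week 1.53), and no other call changed. Whether the replicate numbers pair the samples could not be settled from the values. Over 57 pairs of same-numbered samples the correlation of deviations was -0.43 to 0.44, and 20 pairs were over 0.1. The highest was between HS 2 weeks replicate 1 and FT 2 weeks replicate 1. Of 20 samples, 9 correlated best with a sample of their own number, and no value for unpaired samples was set beside this. Depth limits *Ccne1* and *Ccna2* outside 72 h, which rest on 5 to 20 and 15 to 37 reads per sample. *Ccnb2* had as few as 13 reads at HS 1 week, and *Ccne2* as few as 14 at HS 2 weeks.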
